A study of Homo sapiens with 4 samples.

Results

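The comparison described here sets the third day of doxycycline against the second in H9, a human embryonic stem cell line kept in the primed state. Of the 4 libraries in the series, 2 were labelled 3 days and 2 were labelled 2 days, and they were chosen by that label alone. All 4 cell populations carried a PB-TetO construct, from which doxycycline induces dCas9-BFP-KRAB, a nuclease-dead Cas9 joined to a repressor domain. Per the labels' protocols, 1 arm also received 4 pooled guides against the long non-coding RNA gene SNHG26 and the other arm control guides, both as puromycin-selected, transfected populations and not as single clones. Each arm gave 1 library per day, and no library came from cells without doxycycline. The day change was therefore taken within each arm, as day 3 minus day 2, and the arms served as the only replicates. The length of doxycycline treatment, the extra day in culture and the separate harvest cannot be told apart. Nothing in the labels says that the libraries of a day came from independent cultures, so p-values measure only the spread between these libraries.

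The assay was long-read nanopore sequencing of PCR-amplified cDNA from poly(A) RNA, and gene levels are in TPM, a unit in which each library's transcripts are scaled to the same total. Here the TPM follow from reads divided by genomic span, introns included. They therefore do not rank different genes by abundance, and sums of TPM weigh short genes more. The day 3 libraries were the deeper ones in both arms, with an estimated 478760 reads against 415146 under SNHG26 guides and 445175 against 376541 under control guides. They also listed more genes above 0, with 11162 against 10863 and 11134 against 10603. SNHG26 itself was listed at 0 TPM (day 2) and 0.933 TPM (day 3) under its guides, and at 2.98 TPM and 4.03 TPM under control guides. These levels rest on an estimated 0 to 3.03 reads per library. POU5F1, the core pluripotency factor by which the label of the cells was checked, stood at 1050, 1212, 1068 and 1175 TPM in the SNHG26 arm on day 2 and day 3 and in the control arm on day 2 and day 3. Among the 9 lineage factors TBXT, EOMES, GATA4, GATA6, SOX17, PAX6, SOX1, CDX2 and GATA3, none had a value above 0 in the table used here. Summed levels of the marker lists of mesendoderm, neuroectoderm, and amnion and trophectoderm lay between 2.42 and 24.6 TPM in each library, on both days.

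Sterol-poor cells release the transcription factor SREBP2 from the endoplasmic reticulum, which raises the enzymes of cholesterol synthesis, and sterol-rich cells hold it back through INSIG proteins. Cells short of oxygen stabilise the factor HIF1A, which raises glycolytic enzymes, glucose transporters and the mitophagy receptors BNIP3 and BNIP3L. Metallothioneins are small cysteine-rich proteins that bind zinc and copper, and the metal-sensing factor MTF1 raises them. Primed stem cells are strongly glycolytic and divide fast. In bulk RNA, fewer cells expressing a gene and less of its RNA per cell cannot be told apart.

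In both guide arms, 23 of 28 tested cholesterol genes were lower on day 3, and 8 of 10 tested hypoxia targets, 13 of 18 glycolytic genes and 7 of 7 metallothioneins were higher. Over all tested genes 24.8% were lower in both arms and 24.3% higher in both, and no member of these groups passed limma's adjusted threshold over all genes. The groups were chosen with earlier results of these data known. The summed level of a list of 32 genes of cholesterol synthesis and uptake, which also holds fatty acid enzymes, was 1135 TPM on day 2 and 563 TPM on day 3 under SNHG26 guides, and 1080 TPM and 404 TPM under control guides. The summed level of the 20 hypoxia targets was 170 TPM and 609 TPM under SNHG26 guides, and 219 TPM and 803 TPM under control guides. In TPM most of that difference was DDIT4, without which the sum was 69.0 TPM and 199 TPM, and 93.4 TPM and 187 TPM. By estimated reads DDIT4 was not the larger gene, with a mean of 47.2 against 65.1 for BNIP3. The summed level of 7 metallothioneins was 3546 TPM and 6913 TPM, and 4668 TPM and 8935 TPM. Sums of pluripotency genes were 3153 TPM and 3633 TPM, and 3352 TPM and 3697 TPM.

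The promoters of 8 genes are printed, chosen for their like change in both arms: FDPS and SCD from the cholesterol list, BNIP3 and DDIT4 from the hypoxia list, LDHA from the glycolysis list, 2 metallothioneins, and ERG28, a sterol gene outside the lists. Each is the RefSeq window of 300 bases on GRCh38.p14, from 250 bases before the annotated start to 50 bases after it, read on the gene's strand. Capitals mark matches on either strand to the letters searched. For FDPS, SCD and ERG28 these are CCAAT, the core bound by NF-Y, a factor known to act beside SREBP2. FDPS (chr1:155308616-155308915, plus strand), SCD (chr10:100346983-100347282, plus strand) and ERG28 (chr14:75660827-75661126, minus strand) hold 3, 2 and 3 matches.
FDPS: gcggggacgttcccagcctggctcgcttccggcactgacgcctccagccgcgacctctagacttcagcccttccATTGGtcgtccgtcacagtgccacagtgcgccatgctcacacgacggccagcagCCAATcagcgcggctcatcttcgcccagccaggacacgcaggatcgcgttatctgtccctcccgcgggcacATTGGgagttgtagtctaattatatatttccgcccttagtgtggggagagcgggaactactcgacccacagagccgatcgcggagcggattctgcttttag
SCD: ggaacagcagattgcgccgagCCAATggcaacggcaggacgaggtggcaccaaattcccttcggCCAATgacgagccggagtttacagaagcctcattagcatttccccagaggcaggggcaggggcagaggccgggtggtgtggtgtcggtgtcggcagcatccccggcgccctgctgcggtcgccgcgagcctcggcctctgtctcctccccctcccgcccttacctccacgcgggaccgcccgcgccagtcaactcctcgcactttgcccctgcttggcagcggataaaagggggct
ERG28: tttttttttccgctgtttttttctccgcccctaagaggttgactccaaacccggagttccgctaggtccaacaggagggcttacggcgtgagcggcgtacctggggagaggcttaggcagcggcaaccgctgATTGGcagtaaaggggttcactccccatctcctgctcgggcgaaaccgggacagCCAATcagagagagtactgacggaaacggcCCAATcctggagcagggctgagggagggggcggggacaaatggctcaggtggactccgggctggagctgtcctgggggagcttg
For BNIP3, DDIT4 and LDHA the letters are ACGTG, the core bound by HIF1A. Its reverse overlaps it in CACGTG, where both strands count. BNIP3 (chr10:131981874-131982173, minus strand) holds 2 matches, DDIT4 (chr10:72273674-72273973, plus strand) 1 and LDHA (chr11:18394313-18394612, plus strand) 5.
BNIP3: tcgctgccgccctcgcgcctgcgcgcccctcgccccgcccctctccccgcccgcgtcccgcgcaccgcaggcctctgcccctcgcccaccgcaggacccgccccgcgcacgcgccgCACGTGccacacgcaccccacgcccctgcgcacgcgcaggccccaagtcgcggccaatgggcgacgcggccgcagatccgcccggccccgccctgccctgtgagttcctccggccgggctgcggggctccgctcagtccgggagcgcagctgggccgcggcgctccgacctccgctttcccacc
DDIT4: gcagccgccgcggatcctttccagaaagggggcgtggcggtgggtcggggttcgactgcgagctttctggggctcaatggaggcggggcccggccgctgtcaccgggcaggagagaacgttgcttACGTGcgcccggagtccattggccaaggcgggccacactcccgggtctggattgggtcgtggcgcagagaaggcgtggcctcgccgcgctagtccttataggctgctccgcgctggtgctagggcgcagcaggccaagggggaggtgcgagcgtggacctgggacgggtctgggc
LDHA: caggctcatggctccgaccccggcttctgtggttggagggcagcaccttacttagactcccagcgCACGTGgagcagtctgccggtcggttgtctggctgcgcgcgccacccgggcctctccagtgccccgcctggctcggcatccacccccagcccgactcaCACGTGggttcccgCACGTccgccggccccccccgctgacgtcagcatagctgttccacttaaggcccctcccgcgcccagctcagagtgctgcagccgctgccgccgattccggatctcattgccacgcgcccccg
For metallothioneins they are TGCACNC and TGCGCNC, the core forms of the metal response element bound by MTF1. MT2A (chr16:56608334-56608633, plus strand) holds 6 matches of the first form and 2 of the other, and MT1X (chr16:56682220-56682519, plus strand) 2 and 2.
MT2A: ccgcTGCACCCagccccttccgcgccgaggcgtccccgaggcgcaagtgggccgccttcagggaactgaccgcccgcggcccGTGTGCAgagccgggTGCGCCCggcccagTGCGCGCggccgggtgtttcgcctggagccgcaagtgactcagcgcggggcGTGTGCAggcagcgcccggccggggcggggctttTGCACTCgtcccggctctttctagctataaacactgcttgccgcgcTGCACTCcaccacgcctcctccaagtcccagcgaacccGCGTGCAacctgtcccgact
MT1X: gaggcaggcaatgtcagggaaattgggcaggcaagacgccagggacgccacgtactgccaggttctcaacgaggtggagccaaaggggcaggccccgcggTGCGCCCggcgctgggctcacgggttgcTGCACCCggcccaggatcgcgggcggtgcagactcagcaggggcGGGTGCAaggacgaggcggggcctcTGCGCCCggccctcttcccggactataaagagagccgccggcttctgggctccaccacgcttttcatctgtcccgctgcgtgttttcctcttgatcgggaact
Over all 35116 promoters of this length, CCAAT was found in 34.6%, ACGTG in 21.4%, TGCACNC in 12.1% and TGCGCNC in 20%. Of the 28 tested cholesterol genes, 21 had a promoter in the RefSeq table and 18 of these held CCAAT in at least 1 listed promoter. The sterol element in the form TCACNCCAC was found in 1 of the 21, SREBF2, and in 1.13% of all promoters. ACGTG was found in 5 of 9 hypoxia targets and in 10 of 17 glycolytic genes with a promoter. Both metal response forms were found in 3 of 3 metallothioneins with a promoter. A gene with several listed promoters had more windows in which to match, and a match is a description of letters, not of binding.

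Day changes are given as differences of log2(TPM + 1), which understates changes of low genes. With 2 libraries a day, limma's test over the 8274 genes that averaged 1 TPM or more called 3 (0.0363%) at an adjusted p under 0.05, and 547 (6.61%) had an unadjusted p under 0.05. The 3 called genes were short RNA genes with 1 or 2 reads in a library. By this test MT-TG, the mitochondrial glycine tRNA, rose from 0 TPM in both day 2 libraries to 96.0 and 98.8 TPM on day 3. RNVU1-31, a U1 small nuclear RNA variant with near-identical copies elsewhere, rose from 0 TPM in both to 79.7 and 81.9 TPM. SNORD68, a small nucleolar RNA, fell from 86.8 and 95.6 TPM to 0 TPM in both. The adjusted p of each was 0.0463 by limma, and with arm added as a replicate block limma called 0 genes, with 482 at an unadjusted p under 0.05 and a smallest adjusted p of 0.321. The main description therefore rests on genes with more reads that moved alike in both arms.

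Well-covered genes were those with a mean of at least 50 estimated reads, 1177 in all. Of these, 32 (2.72%) were higher on day 3 by at least 1.5-fold in both arms, 37 (3.14%) were lower by as much in both, and 21 (1.78%) moved by as much in opposite directions. Over all 8274 tested genes the same counts were 465 (5.62%), 454 (5.49%) and 647 (7.82%), so that among all tested genes 919 moved alike and 647 oppositely by that size, against 69 and 21 of the well-covered genes. The median change of the well-covered genes was 0.12 under SNHG26 guides and -0.06 under control guides. Across the well-covered genes the changes of the arms had a Pearson correlation of 0.163 and a Spearman correlation of 0.329, and across all tested genes 0.0464 and 0.103. These correlations are across genes, which are not independent replicates.

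The estimate of reads takes the median transcript span of each gene, and some genes that passed carried their change on a much shorter transcript. CADM2, JMJD1C, CCT4 and STK32C, which were among the 12 well-covered genes with the largest like increase, had means of 0.45, 1.37, 5.13 and 4.61 reads on the shortest transcript. PRORP, HMGCS1, BBOX1-AS1 and CNBD2 among the 12 with the largest like decrease had 0.41, 5.46, 4.24 and 1.503.

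A stricter set of 1058 genes had a mean of at least 20 reads even on the shortest annotated transcript. Of these, 29 (2.74%) were higher and 24 (2.27%) lower by at least 1.5-fold in both arms, and 5 (0.473%) moved by as much in opposite directions. The Pearson correlation between arms across these genes was 0.269. In a limma fit over these genes alone, 5 (0.473%) were called, BNIP3, DDIT4, LINC00458, DANT2 and BCL10-AS1, all higher on day 3, and 117 had an unadjusted p under 0.05. With arm added as a replicate block, limma called 41 (3.88%), 25 higher and 16 lower. A fit with the block leaves 1 residual degree of freedom per gene, and this set was chosen after seeing the data. The small block p-values given below for single genes carry both limits, and over all tested genes the block fit called 0. Annotation gaps remain in this set. On day 2 BCL10-AS1 had 0 TPM, followed by 4.06 and 4.17 TPM on day 3, and both day 3 values equal those of 1 read on a span of 1609 bases. DANT2 in the control arm was at 0 TPM on day 2, and its 5.64 TPM on day 3 equal 1 read on a span of 1190 bases. BCL10-AS1 and DANT2 are therefore not described further. Both still count among the 29 higher genes. Those 29 held 18 protein-coding and 10 long non-coding RNA genes, and the 24 lower genes 22 and 2. Among all 1058 genes of the set, 966 were protein-coding and 57 long non-coding.

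**Figure D1:**
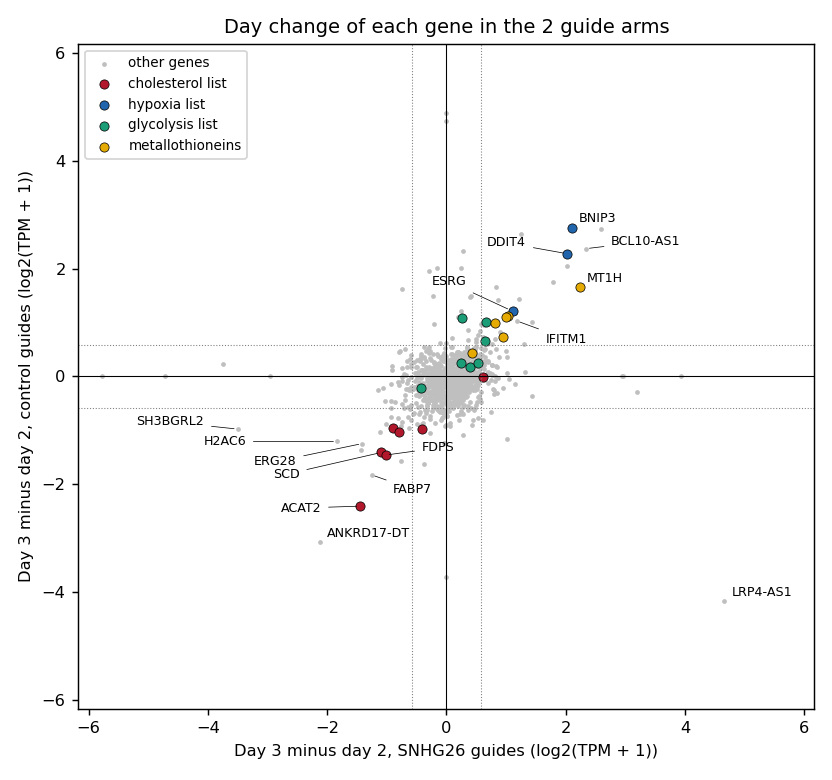
Day change of each of the 1058 genes with at least 20 reads on the shortest transcript, with the SNHG26 arm on the x axis and the control arm on the y axis, both as day 3 minus day 2 on log2(TPM + 1). Dotted lines mark 1.5-fold. Most genes sit near 0, the hypoxia genes BNIP3 and DDIT4 and the metallothionein MT1H are high in both arms, ACAT2, FDPS and SCD are low in both, and LRP4-AS1 is high in 1 arm and low in the other.

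The scatter of both arms shows where the gene groups lie. Of the 28 tested cholesterol genes, 0 were higher on day 3 in both arms. The median day change of the 28 genes was -0.75 under SNHG26 guides and -1.06 under control guides, against 0.00 and -0.02 for all tested genes. By at least 1.5-fold in both arms, 16 of the 28 were lower. None passed limma's adjusted threshold over all genes, and 12 had an unadjusted p under 0.05. In the stricter set with the arm as a block, limma called 4 of 7, ACAT2, FDPS, MSMO1 and SCD, all lower, and without the block 0 of 7.

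Of the mevalonate pathway, which builds isoprenoid units from acetyl-CoA, 6 of 7 tested genes were lower in both arms, and the summed level was 2.36-fold lower in the SNHG26 arm and 3.50-fold lower in the control arm. ACAT2, the cytosolic thiolase that joins acetyl-CoA units, stood at 161 TPM and 58.6 TPM under SNHG26 guides on day 2 and day 3, and at 137 TPM and 25.01 TPM under control guides. The levels of the days did not overlap, and limma's mean change was -1.93 (SE 0.47, adjusted p = 0.529; in the stricter set 0.0885, and 0.00015 with the arm as a block). HMGCS1, which makes HMG-CoA, stood at 63.7 TPM and 22.2 TPM, and at 49.4 TPM and 8.17 TPM, but with a mean of only 5.46 reads on its shortest transcript.

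MVD, the decarboxylase that makes isopentenyl diphosphate, stood at 94.5 TPM on day 2 and 35.1 TPM on day 3 under SNHG26 guides, and at 92.1 TPM and 16.8 TPM under control guides. FDPS, which makes farnesyl diphosphate, stood at 217 TPM and 106.5 TPM, and at 217 TPM and 78.3 TPM. The FDPS levels of the arms were alike on day 2 and 2.04-fold and 2.77-fold lower on day 3 (limma, change -1.24, SE 0.21, adjusted p = 0.337; in the stricter set 0.0650, and 0.00126 with the arm as a block). PMVK, the phosphomevalonate kinase, was the exception. It had 17 reads on day 2 and 30 reads on day 3 under SNHG26 guides, and 22 and 26 reads under control guides, and its day change was 0.61 and -0.02.

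All 12 genes from squalene to cholesterol were lower on day 3 in both arms, 7 of them by at least 1.5-fold in both. LSS, the cyclase that forms lanosterol, stood at 18.2 TPM and 1.81 TPM under SNHG26 guides and at 27.9 TPM and 11.7 TPM under control guides, on day 2 and day 3. MSMO1, a sterol methyl oxidase, stood at 66.9 TPM and 35.6 TPM, and at 62.1 TPM and 31.4 TPM. EBP, a sterol isomerase, stood at 119 TPM and 66.2 TPM, and at 111 TPM and 56.5 TPM. The day change of MSMO1 was -0.89 and -0.96 and that of EBP -0.84 and -0.96. DHCR7, the reductase of the last step, stood at 29.2 TPM and 12.2 TPM, and at 19.7 TPM and 7.20 TPM. HSD17B7, a ketosteroid reductase, had 41 and 25 reads, and 25 and 13 reads. For the last, the ratio of day 3 to day 2 was 0.546 (exact 95% interval 0.318 to 0.920) and 0.435 (0.204 to 0.883).

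Of 4 tested genes that sense or carry sterols, 2 were lower on day 3 in both arms, INSIG1 and STARD4, and all were low. INSIG1, which retains SREBP2 in the endoplasmic reticulum and is itself raised by it, stood at 2.94 TPM on day 2 under SNHG26 guides and 11.01 TPM under control guides, and was listed at 0 TPM in both day 3 libraries. Its mean was an estimated 4.72 reads. The filter's average of 1 TPM covers all 4 libraries, so INSIG1 was tested through its day 2 levels alone. It counts among the 23 cholesterol genes lower in both arms. STARD4, a sterol carrier, stood at 13.5 TPM and 7.65 TPM, and at 12.1 TPM and 6.49 TPM. SREBF2, which encodes SREBP2, had changes of 0.12 and -2.39. ERG28, an endoplasmic reticulum scaffold for sterol enzymes that is not in the list and was chosen by the rule for named genes, had 174 and 72 reads under SNHG26 guides and 115 and 57 reads under control guides.

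SCD, the desaturase that makes oleic acid, lies on chromosome 10 from 100347233 to 100364826 (GRCh38, plus strand). It had 209 reads on day 2 and 108 on day 3 under SNHG26 guides, and 155 and 68 under control guides. In TPM these are 86.6 and 40.1, and 70.8 and 25.96, so that both day 3 libraries were below both day 2 libraries. The ratio of day 3 to day 2 was 0.463 (exact 95% interval 0.364 to 0.587) and 0.367 (0.272 to 0.491). For ERG28 it was 0.371 (0.278 to 0.491) and 0.414 (0.296 to 0.574). The intervals are Clopper-Pearson intervals of a share and cover counting error only, and reads amplified by PCR without molecular identifiers are not independent molecules. By limma's voom on the whole-read genes, SCD and ERG28 had adjusted p-values of 3.97e-06 and 3.00e-06. FADS1 and FADS2, the desaturases of polyunsaturated fatty acids, were lower in both arms, at changes of -0.23 and -0.49, and of -0.96 and -1.33. FASN, the fatty acid synthase, was at -0.24 and 0.43.

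**Figure D2:**
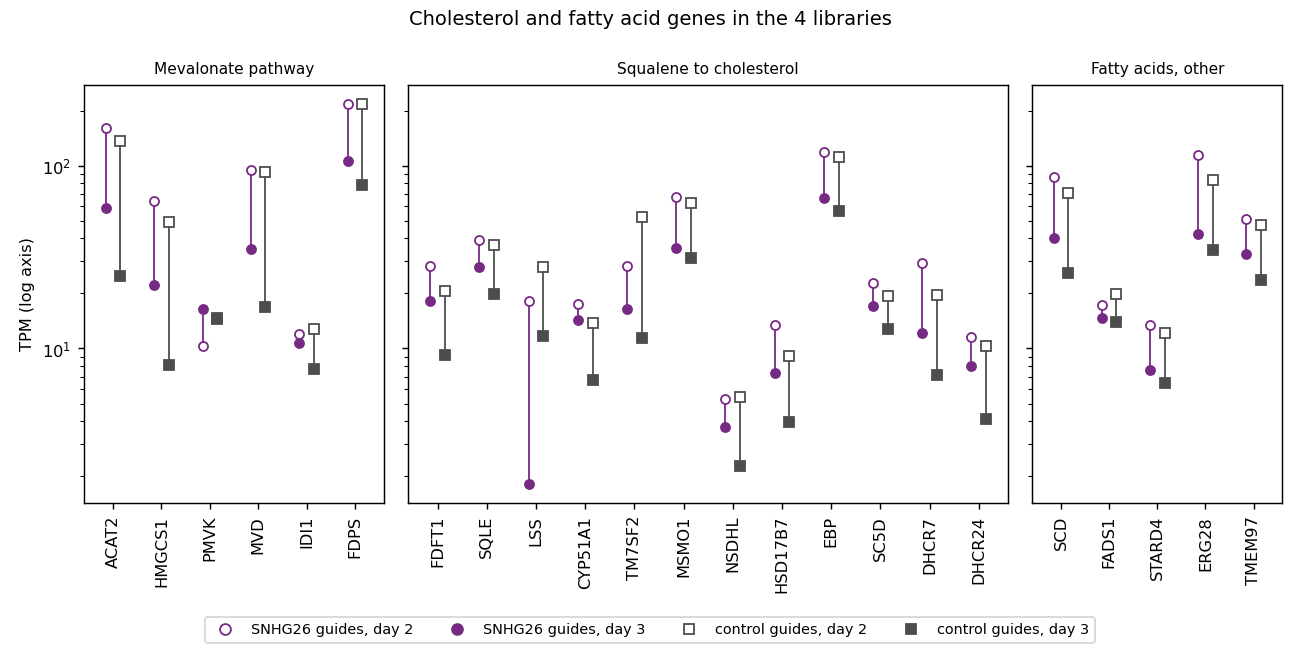
TPM of cholesterol and fatty acid genes in each library on a log axis, with circles for SNHG26 guides, squares for control guides, open symbols for day 2 and filled symbols for day 3. The genes shown are a choice, and FASN and SREBF2, whose changes had opposite signs in the arms, are among those left out. In each gene shown except PMVK, the filled symbol lies below the open symbol of the same arm in both arms.

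The group is not uniform in size of change. In the control arm the median was lower than in the SNHG26 arm (-1.06 against -0.75), and the difference between arms was not tested. The values of 3 further genes follow, which stand for no group. TMEM97, a regulator of the NPC1 cholesterol transporter, stood at 51.3 TPM and 32.9 TPM, and at 47.0 TPM and 23.8 TPM. APOC1, an apolipoprotein, stood at 266 TPM and 157 TPM, and at 217 TPM and 115 TPM. APOE, its neighbour on chromosome 19, stood at 370 TPM and 301 TPM, and at 261 TPM and 232 TPM, below 1.5-fold in both arms. TMEM97, APOC1 and APOE were chosen after their values were seen.

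Of the 20 hypoxia targets, 10 averaged 1 TPM or more and were tested. Of these, 8 were higher on day 3 in both arms and 0 were lower in both. That average covers all 4 libraries, so a low gene could be tested through its day 3 levels alone, as PDK1 was. The directions of the untested members were not counted. The median day change of the 10 tested genes was 1.18 under SNHG26 guides and 1.11 under control guides. None passed limma's adjusted threshold over all genes, 4 had an unadjusted p under 0.05, and 5 were higher by at least 1.5-fold in both arms. BNIP3, a mitophagy receptor, lies on chromosome 10 from 131967684 to 131981967 (minus strand). It stood at 10.9 TPM on day 2 and 50.2 TPM on day 3 under SNHG26 guides, and at 8.81 TPM and 65.4 TPM under control guides. These are 4.603-fold and 7.42-fold higher levels, carried by a mean of 42.9 reads on the shortest transcript (limma, change 2.43, SE 0.26, adjusted p = 0.148; 0.0262 in the stricter set). DDIT4, which restrains the growth kinase mTORC1, stood at 101 TPM and 409.7 TPM, and at 126 TPM and 616 TPM. Its day 3 levels were 4.08-fold and 4.88-fold higher (limma, change 2.15, SE 0.27, adjusted p = 0.187; 0.0267 in the stricter set). DDIT4 is also raised by other stresses, among them glucocorticoids and nutrient shortage.

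BNIP3L, the close relative of BNIP3, stood at 7.51 TPM and 17.4 TPM under SNHG26 guides and at 8.28 TPM and 20.5 TPM under control guides, on day 2 and day 3. ANKRD37, a small ankyrin-repeat gene, stood at 8.34 TPM and 21.1 TPM, and at 2.36 TPM and 25.5 TPM, from an estimated mean of 6.25 reads. PDK1, which shuts pyruvate out of the citrate cycle, stood at 0.893 TPM and 2.06 TPM, and at 0.645 TPM and 1.53 TPM. BNIP3L, ANKRD37 and PDK1 were thus higher on day 3 in both arms, the last 2 on few reads. Others of the list did not move alike. ADM, the peptide adrenomedullin, stood at 34.5 TPM and 95.5 TPM under SNHG26 guides but at 65.5 TPM and 57.8 TPM under control guides. NDRG1, ANGPTL4 and EGLN1 were below 1 TPM in each library.

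Outside the list, FAM162A and MTFP1 were among the 29 higher genes of the stricter set. FAM162A, a mitochondrial protein raised in hypoxia, stood at 4.57 TPM and 11.4 TPM, and at 7.52 TPM and 18.3 TPM. MTFP1, a mitochondrial fission protein, stood at 75.4 TPM and 205 TPM, and at 92.9 TPM and 188 TPM. Both were called by limma in the stricter set with the arm as a block, at adjusted p-values of 0.0322 and 0.00152, and neither without it, at 0.215 and 0.0650. MTFP1 was chosen by the rule for named genes and FAM162A after its values were seen.

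Of the 20 glycolytic genes, 18 were tested, and 13 were higher on day 3 in both arms and 2 lower in both. Their median change was 0.39 and 0.36, and 5 had an unadjusted p under 0.05. LDHA, which makes lactate from pyruvate, stood at 77.5 TPM and 123 TPM under SNHG26 guides, and at 68.9 TPM and 140 TPM under control guides. PGAM1, the phosphoglycerate mutase, stood at 195 TPM and 307 TPM, and at 174 TPM and 277 TPM. Both were higher by at least 1.5-fold in both arms. GAPDH, the gene of the list with the highest TPM, stood at 10412 TPM and 15006 TPM, and at 10578 TPM and 12633 TPM. PGK1 stood at 392 TPM and 469 TPM, and at 370 TPM and 789 TPM, so that its change was 0.26 in 1 arm and 1.09 in the other. PFKL, a phosphofructokinase subunit, stood at 3.74 TPM and 8.13 TPM, and at 6.17 TPM and 12.8 TPM, from an estimated mean of 9.14 reads. LDHB, a lactate dehydrogenase subunit, and ALDOC, an aldolase best known from brain, were the 2 lower genes, at -0.42 and -0.22, and at -0.80 and -0.51. SLC2A1 and SLC2A3, the glucose transporters, had changes of 0.39 and 1.74, and of 1.40 and 0.58.

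All 7 metallothioneins of the list were higher on day 3 in both arms, 6 of them by at least 1.5-fold in both. Their median change was 0.99 and 1.00, and 6 had an unadjusted p under 0.05. Metallothionein genes lie side by side on chromosome 16 and are near-identical copies, so reads could be split between them, which leaves single members less certain than their sum. That sum was 1.95-fold higher under SNHG26 guides and 1.91-fold higher under control guides. MT2A stood at 901 TPM and 1794 TPM, and at 1037 TPM and 2241 TPM, with an estimated mean of 192 reads (limma, change 1.05, SE 0.16, adjusted p = 0.269; in the stricter set 0.0650, and 0.000536 with the arm as a block). MT1G stood at 682 TPM and 1399 TPM, and at 884 TPM and 1921 TPM. MT1X stood at 1009 TPM and 1955 TPM, and at 1433 TPM and 2372 TPM. Control-arm levels were above SNHG26-arm levels on both days in these 3 genes, and day 3 levels above day 2 levels in both arms. MT1H, the member with the largest change in the control arm, stood at 72.1 TPM and 343 TPM, and at 140 TPM and 444 TPM. MT1M had an exact mean of 5.75 reads and stood at 5.51 TPM and 64.2 TPM, and at 18.2 TPM and 30.5 TPM.

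Peroxiredoxins, thioredoxins, superoxide dismutases and glutathione enzymes, 16 genes of which 15 were tested, showed no common direction. Of the 15, 4 were higher and 5 lower in both arms, with medians of 0.19 and -0.19. PRDX1, an abundant peroxiredoxin, stood at 949 TPM and 1084 TPM, and at 1015 TPM and 893 TPM. HMOX1, the haem oxygenase and a general marker of oxidative stress, stood at 7.72 TPM and 8.36 TPM, and at 3.68 TPM and 4.10 TPM.

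**Figure D3:**
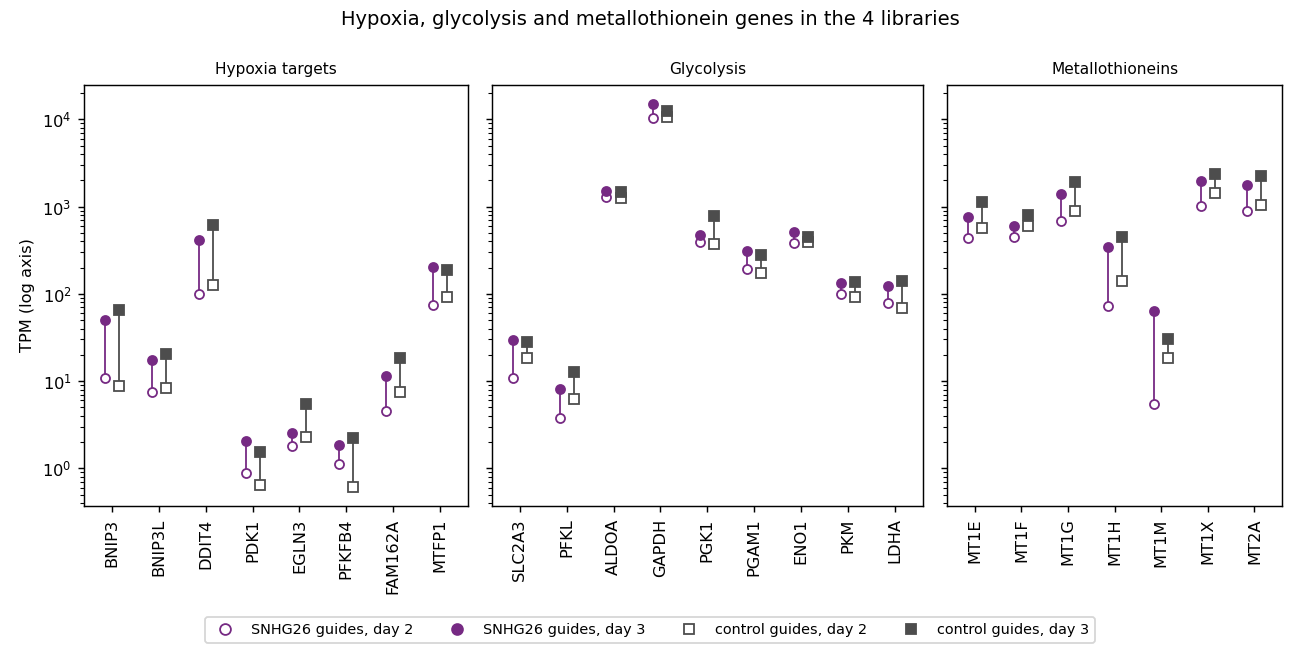
TPM of hypoxia, glycolysis and metallothionein genes in each library on a log axis, with circles for SNHG26 guides, squares for control guides, open symbols for day 2 and filled symbols for day 3. The genes shown are a choice. ADM, LDHB and ALDOC, which were not higher in both arms, are among those left out, and FAM162A and MTFP1 are outside the hypoxia list. In each gene shown the filled symbol lies above the open symbol of its arm, with the widest gaps at BNIP3, DDIT4, MT1H and MT1M in the SNHG26 arm.

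The plot of levels places these groups beside each other: in TPM, hypoxia targets lay at low to moderate levels, and most glycolytic genes lay higher and differed by less between the days. Since these TPM depend on genomic span, the plot does not rank the groups by abundance. Among the 22 lists with at least 10 tested genes, the cholesterol list had the lowest median of the mean change of both arms, and the hypoxia and glycolysis lists the highest. The other 19 lists had medians of that mean between -0.16 and 0.20. Cytosolic ribosomal proteins (85 genes) had medians of 0.12 and 0.00, nuclear respiratory chain subunits (79 genes) 0.18 and 0.04, and mitotic genes (37 genes) 0.25 and 0.12. With a pseudocount of 5 the hypoxia and glycolysis medians came closer, at 0.48 and 0.34, and with 0.1 they were 1.64 and 0.52. Genes of the integrated stress response, in which the kinase network of eIF2 raises ATF4, had medians of -0.11 and -0.31. Of 30 tested, 15 were lower in both arms and 6 higher, against 24.8% and 24.3% of all tested genes. By limma 1 of the 30 had an unadjusted p under 0.05, against 6.61% of all tested genes. Targets of p53, which rise on DNA damage, had medians of 0.13 and 0.16, with 0 of 17 at an unadjusted p under 0.05. Endoplasmic reticulum chaperones were at -0.08 and -0.38. The lists were chosen with earlier results of these data known, so their order is a description only. They were not tested as sets.

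**Figure D4:**
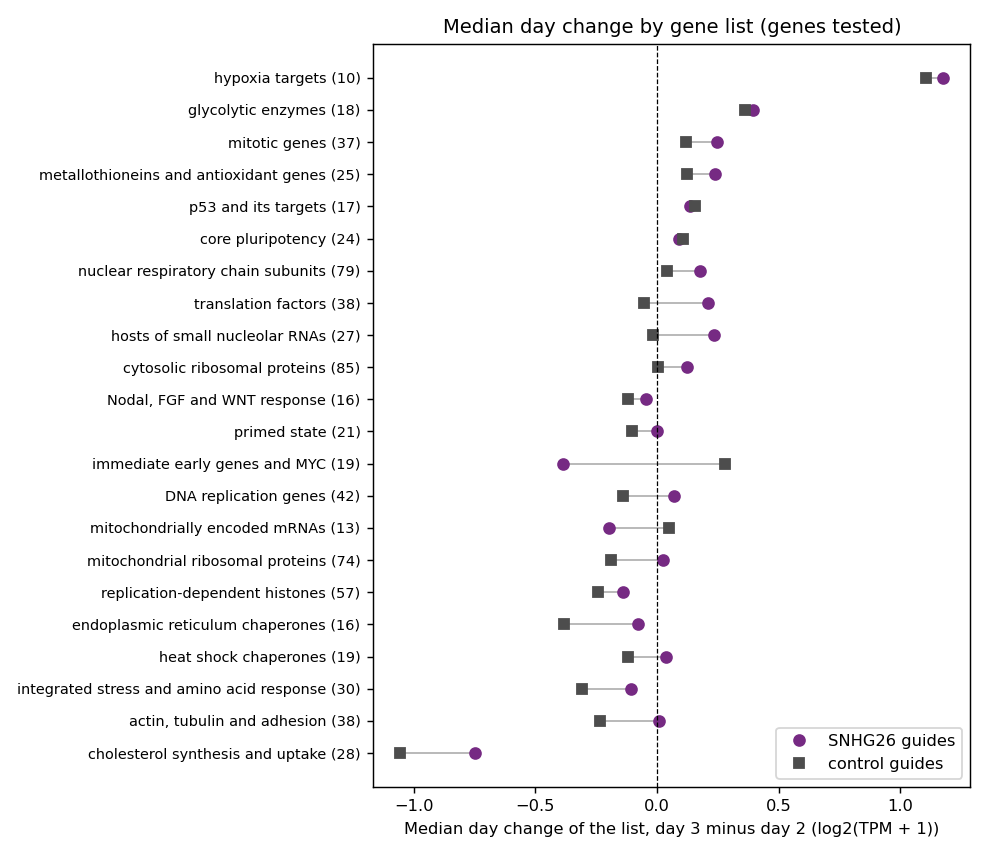
Median day change of 22 gene lists, day 3 minus day 2 on log2(TPM + 1), with circles for SNHG26 guides and squares for control guides. Numbers in brackets are genes tested, and the dashed line is the median of all tested genes in the SNHG26 arm. The cholesterol list lies at -0.75 and -1.06 and the hypoxia list at 1.18 and 1.11, apart from the rest.

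The pluripotency network stayed near its day 2 levels in most members. Of 24 tested core pluripotency genes, 12 were higher and 5 lower in both arms, with medians of 0.09 and 0.11, and 2 had an unadjusted p under 0.05. SOX2, the partner of POU5F1, stood at 241 TPM and 263 TPM under SNHG26 guides and at 246 TPM and 307 TPM under control guides. NANOG stood at 35.5 TPM and 22.4 TPM, and at 26.4 TPM and 27.6 TPM, with changes of opposite sign. L1TD1, an RNA-binding protein of stem cells, stood at 83.5 TPM and 87.0 TPM, and at 97.1 TPM and 89.2 TPM. The genes POU5F1, SOX2, NANOG and L1TD1 thus did not move alike by 1.5-fold.

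By at least 1.5-fold in both arms, 3 genes of the list were higher, ESRG, LINC00678 and GDF3, and 1 was lower, DNMT3B. Over all tested genes 5.62% were higher and 5.49% lower by as much. GDF3 was neither well covered nor in the stricter set. ESRG, a primate-specific non-coding RNA of stem cells made from an endogenous retrovirus, stood at 91.0 TPM and 194 TPM, and at 104 TPM and 246 TPM. Its day 3 levels were 2.13-fold and 2.35-fold higher, from a mean of 177 reads (limma, change 1.15, SE 0.20, adjusted p = 0.338; in the stricter set 0.0650, and 0.00161 with the arm as a block). LINC00678, another stem-cell non-coding RNA, stood at 64.7 TPM and 122 TPM, and at 73.0 TPM and 129.8 TPM. DNMT3B, the de novo DNA methyltransferase, stood at 6.92 TPM and 3.17 TPM, and at 11.7 TPM and 6.52 TPM, with an adjusted p of 0.165 by limma in the stricter set with the arm as a block.

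Of 16 tested genes of the Nodal, FGF and WNT list, 6 were lower and 4 higher in both arms, and of 21 of the primed state list 8 were lower and 4 higher. FGF2, the growth factor of the stem-cell medium that the cells also make, stood at 16.9 TPM and 7.88 TPM, and at 14.3 TPM and 7.34 TPM, from a mean of 105 reads on the shortest transcript. Its adjusted p by limma was 0.163 in the stricter set and 0.0765 with the arm as a block, and reads of the antisense gene NUDT6 cannot be told apart without strand. DUSP6, a phosphatase raised by FGF signalling, stood at 36.6 TPM and 16.1 TPM, and at 34.5 TPM and 23.9 TPM. LEFTY1, a Nodal target and Nodal inhibitor, stood at 66.2 TPM and 31.9 TPM, and at 56.1 TPM and 7.03 TPM. ID1, a BMP target, went the other way, at 274 TPM and 411 TPM, and at 237 TPM and 341 TPM. None of the 16 tested genes of the Nodal, FGF and WNT list passed limma's adjusted threshold, and the list's medians were -0.04 and -0.12.

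Replication-dependent histone genes, which are transcribed in S phase, did not all move alike. Of 57 tested, 22 were lower and 12 higher in both arms, with medians of -0.14 and -0.24. By at least 1.5-fold in both arms 11 were lower and 1 higher, against 5.49% and 5.62% of all tested genes. By limma over all genes 7 had an unadjusted p under 0.05, and 0 passed the adjusted threshold. H4C3, the member with the highest TPM, stood at 20053 TPM and 18207 TPM, and at 18426 TPM and 15140 TPM. H2AC6, in contrast, stood at 143 TPM and 39.5 TPM, and at 66.2 TPM and 28.1 TPM. H2BC18 stood at 252 TPM and 92.9 TPM, and at 457 TPM and 177 TPM. Most histone transcripts of this kind lack a poly(A) tail, and the cDNA was primed on poly(A). The H2BC18 reads depend on the transcript, with an estimated mean of 289 and of 64.5 on the shortest span. In the stricter set with the arm as a block, limma called 3 of 19 histone genes, H2AC6, H2BC18 and H4C5, all lower, against 41 of 1058 genes (3.88%), and 0 of 19 without the block. Histone copies are near-identical, so reads may be split between them.

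Among genes with exact read numbers, voom called 7 of 403 (1.74%) between the days without a block, and 8 (1.99%) with the arm as a block. The 7 were SCD, ERG28, FABP7, MRPS26 and MRTO4, lower on day 3, and SMIM3 and KDR, higher, and the block added MT-ND4L, lower. FABP7, a fatty acid binding protein of stem and glial cells, had 50 and 23 reads under SNHG26 guides and 37 and 12 reads under control guides. Its ratio of day 3 to day 2 was 0.412 (exact 95% interval 0.240 to 0.688) and 0.271 (0.129 to 0.532). MRPS26, a protein of the mitochondrial ribosome, had 67 and 44 reads, and 75 and 30 reads. MRTO4, a ribosome assembly factor, had 42 and 21 reads, and 32 and 18 reads. KDR, the receptor of VEGF, had 16 and 51 reads, and 8 and 38 reads. Its ratio was 2.86 (1.60 to 5.37) and 3.97 (1.82 to 9.86), with an adjusted p of 0.00467 by voom. SMIM3, a small membrane protein, had 31 and 65 reads, and 24 and 81 reads, with ratios of 1.88 (1.21 to 2.98) and 2.82 (1.77 to 4.65).

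**Figure D5:**
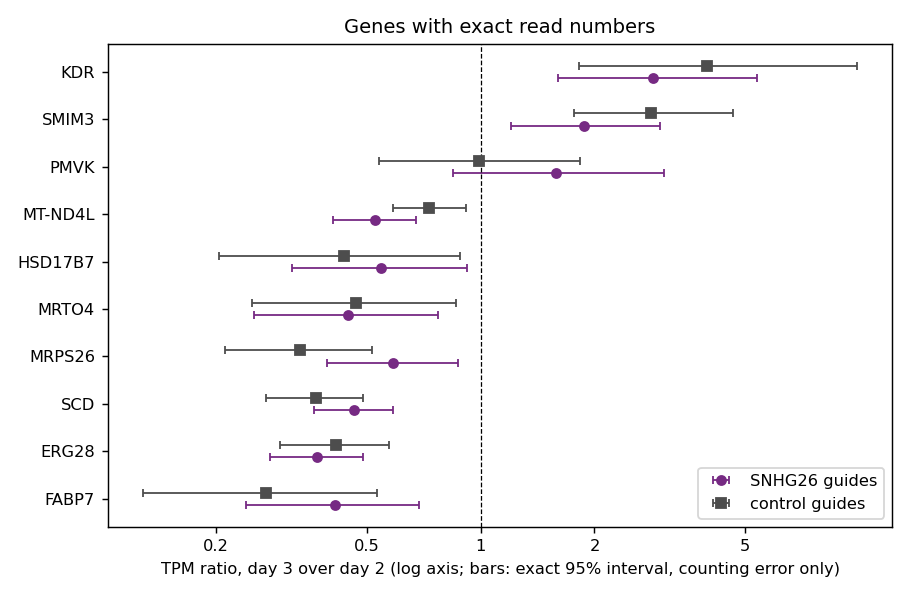
Ratio of TPM on day 3 to day 2 within each arm, on a log axis, for 10 genes whose read numbers are exact, with circles for SNHG26 guides, squares for control guides and bars for the exact 95% interval of counting error. Voom had called 8 of these genes, all but PMVK and HSD17B7, out of 403 tested on the same reads. Intervals off 1 were therefore expected for these 8. Intervals of PMVK include 1 in both arms, and those of the other 9 genes lie on the same side of 1 in both arms.

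KDR also marks mesoderm, and it was the only one of the 4 tested genes of the mesendoderm list that was higher in both arms. TBXT, EOMES and GSC, the defining genes of that list, had no value above 0 in the table used here, and MIXL1 was listed at 0 TPM in all libraries except the control arm on day 3, at 1.98 TPM. PDGFRA, a mesoderm and endoderm receptor, was lower in both arms, at 3.04 TPM and 1.36 TPM, and at 5.02 TPM and 0 TPM.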

How the data were processed

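The authors deposited 1 table of TPM per gene for 4 nanopore cDNA libraries, amplified with 14 PCR cycles. Reads were aligned with minimap2 2.24-r1122 to GRCh38, per the submitters' processing notes. The counting tool, annotation and use of strand are not given in the sources used here. The deposited TPM follow from reads divided by the genomic span of transcripts, introns included, so a gene's TPM can also move when its reads move between transcripts of unlike span. Reads were recovered where all 4 values gave whole numbers within 0.0001 read on the gene's span, for 2853 of 13840 genes with a value (20.6%), and estimated for others with GENCODE 29 spans, matched for 16010 of 16174 genes. All columns were used. Some genes are not reported here.

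Day 3 was compared with day 2 by limma 3.58.1 (R 4.3.3) on log2(TPM + 1), with a mean-variance trend and Benjamini-Hochberg adjustment at 0.05, for genes averaging 1 TPM or more. Voom was run on whole reads with a mean of at least 10. The guide arm is the pairing, since the arms are separately transfected populations. Deviations of libraries of the same arm had a correlation of -0.00651 over 8274 genes and of 0.0367 over 1058. Exact intervals came from scipy 1.17.1 under Python 3.11.15.

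Alternatives varied the pseudocount, filter, scaling, variance prior, block, test, coverage, fold and libraries. The stricter set of at least 20 reads on the shortest transcript was chosen after seeing the data. Genes were named if limma or voom called them, if they were among the 12 well-covered genes each way with the largest like change or the 2 each way with the largest opposite change, or if they led their list in level or like change, and SNHG26 was added. Others named chiefly complete a pathway and were chosen after their values were seen. The gene lists and members were chosen with earlier results of these data known. Promoters came from RefSeq (GRCh38.p14).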

Additional observations from a re-analysis of the deposited data

Results flagged for a closer look

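In 4 genes the day change was of opposite sign in the guide arms, and this difference between arms was not tested. LRP4-AS1, a non-coding RNA, stood at 0 TPM on day 2 and 24.2 TPM on day 3 under SNHG26 guides and at 29.8 TPM and 0.705 TPM under control guides, so that the changes differed by 8.83 on the log2(TPM + 1) scale. NECAP2, an endocytosis protein, stood at 13.1 TPM and 47.7 TPM, and at 25.2 TPM and 6.27 TPM, a difference of 3.64. CACNA2D2, a calcium channel subunit, stood at 12.4 TPM and 0 TPM, and at 0 TPM and 11.5 TPM, a difference of -7.39. ERC2, a synaptic scaffold protein, had a difference of -6.06. On the shortest transcript LRP4-AS1 had a mean of 51.0 reads, but NECAP2 only 2.91, CACNA2D2 2.5 and ERC2 0.50.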

How the results depend on the processing

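Against 3 genes called by limma over 8274, the count was 0 with a pseudocount of 0.1 or 5, no filter, a filter at 50 TPM or at 20 estimated reads, quantile normalization, no variance trend, the replicate block alone or with 20 estimated reads, and 0 to 0 without each library in turn. It was 35 with the replicate block at 50 TPM, 7 by voom on whole reads and 8 with the block. Among settings chosen after seeing the data it was 5 with 20 reads on the shortest transcript, 41 with the block, 1 by voom on estimated reads and 59 with the block. The causes were not tested. There were 69 well-covered genes that moved alike in both arms (at least 1.5-fold), against 159 at 20 estimated reads, 38 at 100 estimated reads, 163 at a smaller fold and 26 at 2-fold.

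Over 85 genes, 739 of 765 alternative values were counted as unchanged, 12 lost the call and 14 turned in direction. Leaving out 1 library leaves the change of the other arm, given without a test, which could fail only by direction. Most of the 85 genes had like changes in both arms, and the main fit called only 3 genes. The count therefore says little about how firm a change is. With a pseudocount of 5 the mean change was -0.0306 for LRP4-AS1 and 0.0577 for NECAP2. Without each library in turn the change ran from -4.18 to 4.66 for LRP4-AS1, from -1.85 to 1.78 for NECAP2, from -3.75 to 3.64 for CACNA2D2, from -3.10 to 2.97 for ERC2, from -0.0162 to 0.61 for PMVK and from -0.64 to 0.0614 for NANOG. With 1 library per arm and day, few reads limit most single genes.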

Other observations

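Some genes outside the groups above also differed between the days in both arms. All of them except IFITM1, TAGLN, CCN1 and CCN2 were chosen after their values were seen. IFITM1, an interferon-induced membrane protein that stem cells also express, stood at 644 TPM on day 2 and 1457 TPM on day 3 under SNHG26 guides, and at 545 TPM and 1115 TPM under control guides. Its relatives IFITM2 and IFITM3 had smaller changes, of 0.34 and 0.42, and of 0.12 and 0.31. CRABP1 and CRABP2, which bind retinoic acid, were both higher on day 3. CRABP1 stood at 238 TPM and 380 TPM, and at 216 TPM and 418 TPM.

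Of 38 tested genes of actin, tubulin and adhesion, 14 were lower and 10 higher on day 3 in both arms. TAGLN, an actin-binding protein, stood at 166 TPM and 61.8 TPM under SNHG26 guides and at 173 TPM and 51.1 TPM under control guides. CCN1, a matricellular protein, stood at 25.1 TPM and 2.05 TPM, and at 27.7 TPM and 2.11 TPM, from an estimated mean of only 3.86 reads. CCN2, its relative, stood at 43.3 TPM and 26.6 TPM, and at 30.2 TPM and 6.30 TPM, from a mean of 11.75 reads. Of the 7 tested genes of the YAP and TEAD list, 3 were lower and 1 higher in both arms, and limma called none of them (1 at an unadjusted p under 0.05). FABP3, a fatty acid binding protein, stood at 52.3 TPM and 6.68 TPM, and at 34.0 TPM and 9.44 TPM.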
